A study of Mus musculus with 12 samples.

Results

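The genes described here include those of the machinery that docks, primes and fuses synaptic vesicles at nerve terminals. They were chosen by symbol from the table of gene counts. The choice took every synaptotagmin other than Syt1, the synapsins, the Vamp and Stx genes, the syntaxin-binding proteins (Stxbp), Rims and Unc13, the Sv2 genes, the complexins, Syp and Snap25. This gave 49 of 12145 genes, and all 49 passed the filter on low counts. All are called release genes below, although the choice by symbol also took in SNAREs of other membranes, such as Stx18 and Vamp5.

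Transmitter release rests on SNARE proteins, which zip together between the vesicle (synaptobrevin, Vamp2) and the plasma membrane (a syntaxin and Snap25) and draw the membranes into fusion. Munc13 (Unc13) and RIM proteins prepare vesicles for fusion, complexins hold the assembled SNAREs, and synaptotagmins sense calcium. In ischemia, excess release of glutamate is known to harm cortical neurons. MicroRNAs of the miR-29 family are abundant in mature neurons and repress mRNAs whose 3′ untranslated regions (UTRs) pair with the microRNA seed.

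The RNA came from cultures of the cortex of C57BL6 mouse embryos (E16.5 to E17.5), which received a lentivirus on day 6 in vitro. OGD-miR29 cultures carried a virus expressing miR-29, named miR-29c in the labels, and on day 14 in vitro were held without oxygen and glucose for 3 h (oxygen-glucose deprivation, OGD, a culture model of ischemia) and allowed to recover for 4 h. OGD-empty cultures carried an empty virus and had the same deprivation and recovery, sham-miR29 cultures carried the miR-29 virus and stayed in normal oxygen, and sham-empty cultures carried the empty virus and stayed in normal oxygen. Every group was thus infected, with a multiplicity of 1 given 2 times, and none lacked a lentivirus. Replicates were cultures dissected on different days, so same-numbered libraries of the groups share a day.

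There were 3 libraries in each of OGD-miR29, OGD-empty and sham-miR29. In sham-empty 2 were used, because the values labelled replicate 3 were not read counts: their sum was only 22859, where the 11 libraries used held 1337564 to 6616920 counts, and 92.7% of those on annotated genes equalled the number of same-strand genes annotated in and just downstream of the gene. The 37 mitochondrial rows held 57.6% to 84.1% of the counts, which left 231500 to 1362484 for all other genes, a median of 9 to 59 counts per gene and library. Levels are given in CPM, counts scaled to a common library size, with the library total scaled by TMM (trimmed mean of M values, which sets typical genes level between libraries), and differences as log2 fold changes ± standard error. The neuronal markers fitted the label: all 8 were measured, and they summed to 700.3 to 844 CPM in OGD-miR29, 823 to 853 CPM in OGD-empty, 725 to 801 CPM in sham-miR29 and 744 to 757 CPM in sham-empty. Single neuronal markers moved both ways between OGD-miR29 and OGD-empty, with Map2 (-1.16), Dcx (-1.19) and Rbfox3 (-1.75) lower and Nefl (1.09), Tubb3 (0.87), Eno2 (0.84) and Nefm (0.74) higher on the log2 scale. With the trend of level with gene length removed and same-numbered libraries as blocks, Map2 (-0.09, adjusted p = 0.809) and Rbfox3 (-0.20, adjusted p = 0.533), which span 267 kb and 422 kb, no longer passed, and the other 5 did. Markers of other cells were lower but present. The 7 measured astrocyte markers of 8 listed summed to 53.8 to 57.7 CPM in OGD-miR29, 45.2 to 66.4 in OGD-empty, 51.5 to 65.2 in sham-miR29 and 47.7 to 50.9 in sham-empty. The 3 measured microglial markers of 8 listed summed to 32.1 to 36.1 CPM in OGD-miR29, 18.8 to 28.0 in OGD-empty, 28.1 to 39.8 in sham-miR29 and 30.7 to 40.8 in sham-empty. The 4 measured markers of the oligodendrocyte lineage summed to 16.3 to 20.9 CPM in OGD-miR29, 14.1 to 16.1 in OGD-empty, 17.1 to 19.6 in sham-miR29 and 16.9 to 19.7 in sham-empty, and the 3 of endothelial cells and fibroblasts to 18.9 to 26.8, 17.3 to 19.8, 15.8 to 20.8 and 10.9 to 23.2 CPM in the same groups. No measured marker was at 0 in all libraries.

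The seed of miR-29 and its matches are shown because the virus supplies this microRNA. The mature mouse sequences (RefSeq, GRCm38.p6) are printed 5′ to 3′ with the seed, bases 2 to 8, in capitals, and the members share it.
miR-29a-3p: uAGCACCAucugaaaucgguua
miR-29b-3p: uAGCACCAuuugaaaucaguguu
miR-29c-3p: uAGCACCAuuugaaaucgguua
The mature miR-29c lies at chr1:195037600-195037621 on the plus strand. The matching letters TGGTGCT were searched on the sense strand of the annotated 3′ UTRs. At least 1 match was found in 13 of the 49 release genes (26.5%), against 1792 of 10056 genes tested that have an annotated 3′ UTR (17.8%). The longest 3′ UTR had a median of 2391 nucleotides in the release genes and 1313 nucleotides in all genes tested. The matches of the 5 genes that also differed between OGD-miR29 and OGD-empty cultures are given with 15 bases before and 1 base after, in the sense of the gene, with the match in capitals (GENCODE M21, GRCm38).
Sv2c, chr13:95956010-95956032, minus strand: ccctgagcagcgcccTGGTGCTc
Syp, chrX:7652670-7652692, plus strand: aggacgagggatgtgTGGTGCTc
Syt14, chr1:192895203-192895225, minus strand: attataagaccaaccTGGTGCTt
Syt14, chr1:192894305-192894327, minus strand: tgtctgctaaatcacTGGTGCTt
Syt2, chr1:134749776-134749798, plus strand: ttttctgtgcaatctTGGTGCTt
Unc13b, chr4:43263773-43263795, plus strand: ccaacaagtagtctgTGGTGCTa
Unc13b, chr4:43264184-43264206, plus strand: caaagcaggttcacaTGGTGCTt
The first Unc13b match is followed by an A, a base that strengthens pairing sites in general. Among the 13 genes only the autophagosomal syntaxin Stx17 had another such match, ccaaggaaagatctgTGGTGCTa at chr4:48182755-48182777, plus strand. A match is a stretch of letters and not evidence of pairing.

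After OGD, cultures with the miR-29 virus held less RNA of many release genes than cultures with the empty virus. Of the 49 genes, 16 were lower and 4 higher in OGD-miR29 than in OGD-empty cultures (edgeR quasi-likelihood test, adjusted p under 0.05), where 37.1% of the 12119 genes tested were called, 19.9% lower and 17.2% higher. The lower genes included syntaxin-binding proteins (Stxbp5, Stxbp6, Stxbp5l), active zone genes (Rims1, Rims2, Unc13b), synaptotagmins (Syt14, Syt2, Syt9, Syt7), synapsins (Syn3, Syn2), SNAREs of release (Snap25, Vamp2) and the vesicle membrane gene Sv2c. The higher genes were the vesicle protein Syp and 3 SNAREs of other membranes, Stx18, Vamp5 and Stx12. The median log2 fold change was -0.33 over the 49 genes and 0.02 over all genes tested, with 34 of the 49 below 0. With the trend of level with gene length removed, the median of the 49 was -0.12, or -0.11 with same-numbered libraries as blocks. DESeq2 called 3 higher and 13 lower (12.1% and 16.4% of all genes), with Stx12 (adjusted p = 0.0806), Syt7 (0.0743) and Syt9 (0.0913) among those lost. A fit of the 2 groups alone called 3 higher and 13 lower of 47 (17.3% and 18.7% of all genes), losing Snap25 (0.0649), Syn2 (0.0539), Syt7 (0.0588) and Stx12 (0.0531). With same-numbered libraries as blocks 5 were higher and 18 lower (17.8% and 20.9% of all genes). In bulk cultures, fewer cells of a type and less RNA per cell cannot be told apart. Microglial and oligodendrocyte markers were higher in OGD-miR29 than in OGD-empty libraries without overlap, by the sums given above, and their part in the result was not tested.

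**Figure D1:**
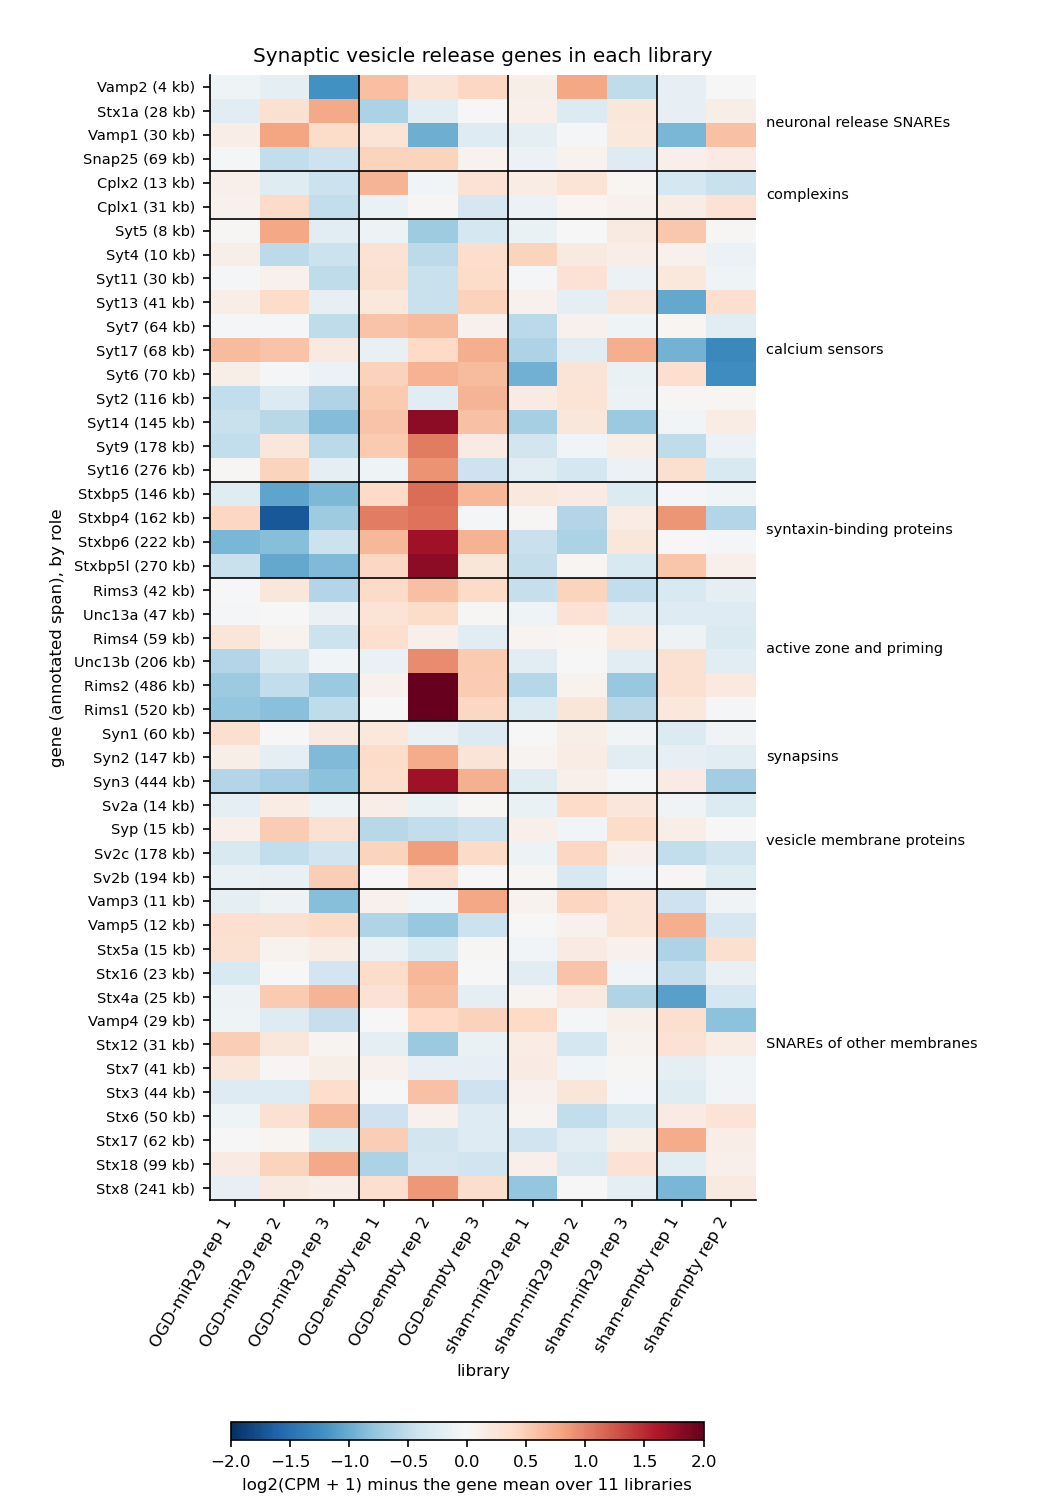
Level of 47 of the 49 release genes (rows, grouped by role and ordered by annotated span within a role) in the 11 libraries (columns), as log2(CPM + 1) minus the gene's mean over the libraries, with colours ending at 2 on either side. Long genes such as Rims1, Rims2 and Syn3 are darkest in OGD-empty replicate 2, and the OGD-miR29 columns are below the mean for most of these rows.

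Without OGD no such difference was called. Between sham-miR29 and sham-empty cultures, edgeR called 0 of the 49 genes and 0% of all genes. DESeq2 and limma-voom also called 0 of the 49, and 2 had an unadjusted p under 0.05 in edgeR (3.34% of all genes did) against 0 in each of the other tools. The median log2 fold change of the 49 was 0.08. It was -0.16 over those that span 100 kb or more and 0.15 over the shorter ones. Over all genes of these lengths it was -0.03 and 0.003. Spearman's correlation of log2 fold change with span was -0.363 across the 49 genes and 0.021 across all genes, as a description. The 3 genes with the smallest p were Syt17, a Golgi synaptotagmin, at 2.10 ± 0.90, Sv2c at 0.63 ± 0.29 and Cplx2 at 0.58 ± 0.29, each with an adjusted p of 1. Syt17 was scarce: it had 4.96, 4.73 and 3.37 CPM in OGD-miR29, 2.47, 4.06 and 5.36 CPM in OGD-empty, 1.52, 2.31 and 5.4 CPM in sham-miR29, and 0.995 and 0.579 CPM in sham-empty. Only in sham-empty was it below 1 CPM in every library, and without sham-miR29 replicate 3 its log2 fold change was 1.33.

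In the empty-virus cultures, OGD raised 1 of the 49 genes and lowered none, against 1.48% of all genes higher and 3.61% lower (5.09% called). The gene was Sv2c, a paralogue of the vesicle glycoprotein Sv2a, which had 14.9, 13.0 and 13.9 CPM in OGD-miR29, 25.9, 34.3 and 24.7 CPM in OGD-empty, 17.4, 25.4 and 20.1 CPM in sham-miR29, and 12.9 and 13.9 CPM in sham-empty. The OGD-empty libraries were the highest apart from the overlap of their lowest with sham-miR29 replicate 2, and all were above sham-empty (log2 fold change 1.06 ± 0.28, adjusted p = 0.0363). The call was lost with limma-voom (adjusted p = 0.0571), when only the compared groups were fitted (0.0864), without sham-empty replicate 1 (0.167) or 2 (0.249) and without OGD-empty replicate 2 (0.0535). With same-numbered libraries as blocks 4 genes were called, Sv2c, Syn3, Syn2 and Syt14, all higher, where 5.69% of all genes were called higher and 5.61% lower. The median log2 fold change was 0.45 over the 49 genes against 0.02 over all genes, with 38 of 49 above 0. With the length trend removed the median of the 49 was 0.11, or 0.16 with the replicate block. An unadjusted p under 0.05 was found for 13 of the 49 genes and for 23.7% of all genes. In the authors' deposited table of this comparison no release gene had a false discovery rate under 0.05 (smallest 0.223). Only 6 of all genes in it did. The median log2 fold change there was 0.60 over the release genes and 0.04 over all genes.

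With the miR-29 virus in both groups, OGD-miR29 against sham-miR29, edgeR called 0 of the 49 genes, against 0.0165% of all genes. DESeq2 and limma-voom also called 0, and an unadjusted p under 0.05 was found for 5 genes by edgeR (9.17% of all genes), 2 by DESeq2 and 5 by limma-voom. DESeq2 gave no adjusted p for 18 of the genes. The median log2 fold change was -0.15. The smallest p belonged to Stxbp5 (-0.71 ± 0.26, adjusted p = 0.479), Sv2c (-0.58 ± 0.22, adjusted p = 0.488) and Syt2 (-0.60 ± 0.27, adjusted p = 0.526). OGD-miR29 against sham-empty, virus and deprivation together against neither, likewise gave 0 calls in edgeR, DESeq2 and limma-voom among the 49, and 0% over all genes. There 3 genes had an unadjusted p under 0.05 by edgeR (6.94% of all genes), 2 by DESeq2 and 4 by limma-voom. The edgeR values with the smallest p were Syt17 (2.55 ± 0.85), Stxbp5l (-1.10 ± 0.46) and Stx18 (0.52 ± 0.24), with adjusted p of 0.709, 0.709 and 0.714. The authors' deposited table of the same comparison gave no release gene a false discovery rate under 0.05 (smallest 0.970). In it only 2 of all genes were under that limit. The comparisons named here share groups, so their values are not independent of each other.

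The change with OGD differed between the viruses for 3 genes, all with a lower value under miR-29 (8.38% of all genes were called in this interaction, 4.72% higher and 3.66% lower under miR-29). For Sv2c the OGD effect was -0.58 ± 0.22 under miR-29 and 1.06 ± 0.28 under the empty virus, a difference of -1.64 ± 0.36 (adjusted p = 0.0122). For Stxbp5 it was -0.71 ± 0.26 under miR-29 and 0.81 ± 0.31 under the empty virus, a difference of -1.52 ± 0.40 (adjusted p = 0.0264). For Syn3 it was -0.66 ± 0.32 under miR-29 and 1.32 ± 0.39 under the empty virus, a difference of -1.97 ± 0.50 (adjusted p = 0.0264). With the replicate block 9 genes were called, 8 with a negative difference (among them Sv2c, Stxbp5, Syn3, Vamp2, Syn2, Cplx2 and Syt14) and Stx18 with a positive one, where 8.03% of all genes were called with a negative and 7.33% with a positive difference. Without sham-empty replicate 1 or 2 none of the 3 calls held (adjusted p of 0.0593 and 0.0927 for Sv2c). The Stxbp5 call was also lost without sham-miR29 replicate 1 (0.0575) or 2 (0.0672) and without OGD-miR29 replicate 2 (0.0566) or 3 (0.0604). The Syn3 call was lost without sham-miR29 replicate 2 (0.0828) and without OGD-miR29 replicate 2 (0.0563) or 3 (0.0728).

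The vesicle membrane genes split. Syp encodes synaptophysin, an abundant protein of the vesicle membrane and a common marker of nerve terminals. It had 193, 256 and 220.2 CPM in OGD-miR29, 122, 127 and 132 CPM in OGD-empty, 191, 172 and 231 CPM in sham-miR29, and 197 and 181 CPM in sham-empty. Every OGD-empty library was below every library of the other groups (OGD-miR29 against OGD-empty 0.81 ± 0.19, adjusted p = 0.00381). The overlapping gene Gm14703 held 1.00 times the summed count of Syp and had a log2 fold change of 0.78, so the reads of these genes cannot be told apart. The other direction was seen in Sv2c, lower in OGD-miR29 than in OGD-empty by the levels above (-1.01 ± 0.22, adjusted p = 0.00222). Sv2a, the target of the antiepileptic drug levetiracetam, had 52.9, 66.6 and 55.8 CPM in OGD-miR29, 65.6, 54.2 and 60.6 CPM in OGD-empty, 54.6, 77.3 and 70.5 CPM in sham-miR29, and 56.7 and 49.2 CPM in sham-empty. Sv2b, the forebrain paralogue, had 21.3, 20.9 and 33.2 CPM in OGD-miR29, 23.5, 29.8 and 23.6 CPM in OGD-empty, 23.9, 18.4 and 22.4 CPM in sham-miR29, and 23.9 and 19.7 CPM in sham-empty. Their OGD groups overlapped, and their log2 fold changes of -0.05 ± 0.19 and -0.04 ± 0.22 did not pass the test. Bola1 held 0.796 times the count of Sv2a.

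Synapsins tether vesicles to each other and to actin in the reserve pool. Syn3, which is expressed early in neuronal development, had 13.8, 13.0 and 11.5 CPM in OGD-miR29, 27.2, 70.9 and 35.4 CPM in OGD-empty, 17.8, 22.7 and 20.6 CPM in sham-miR29, and 23.9 and 12.7 CPM in sham-empty. The OGD-miR29 libraries lay below all OGD-empty libraries, and OGD-empty replicate 2 was the highest (log2 fold change -1.76 ± 0.31, adjusted p = 0.000907). Syn2 had 50.9, 41.0 and 25.0 CPM in OGD-miR29, 60.8, 79.5 and 56.3 CPM in OGD-empty, 48.9, 51.9 and 40.1 CPM in sham-miR29, and 41.8 and 39.9 CPM in sham-empty. It was lower in OGD-miR29 than in OGD-empty in all 3 pairs, without overlap (-0.73 ± 0.23, adjusted p = 0.0174), and the call was lost without OGD-miR29 replicate 3 (adjusted p = 0.0883). Syn1, the main synapsin of mature neurons, had 51.4, 41.0 and 46.6 CPM in OGD-miR29, 47.6, 37.5 and 33.8 CPM in OGD-empty, 41.3, 44.6 and 39.6 CPM in sham-miR29, and 33.8 and 39.4 CPM in sham-empty. Its groups overlapped (0.22 ± 0.19, adjusted p = 0.395). The neighbour Araf held 0.909 times the count of Syn1 and had a log2 fold change of 0.57 (adjusted p = 0.0371).

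**Figure D2:**
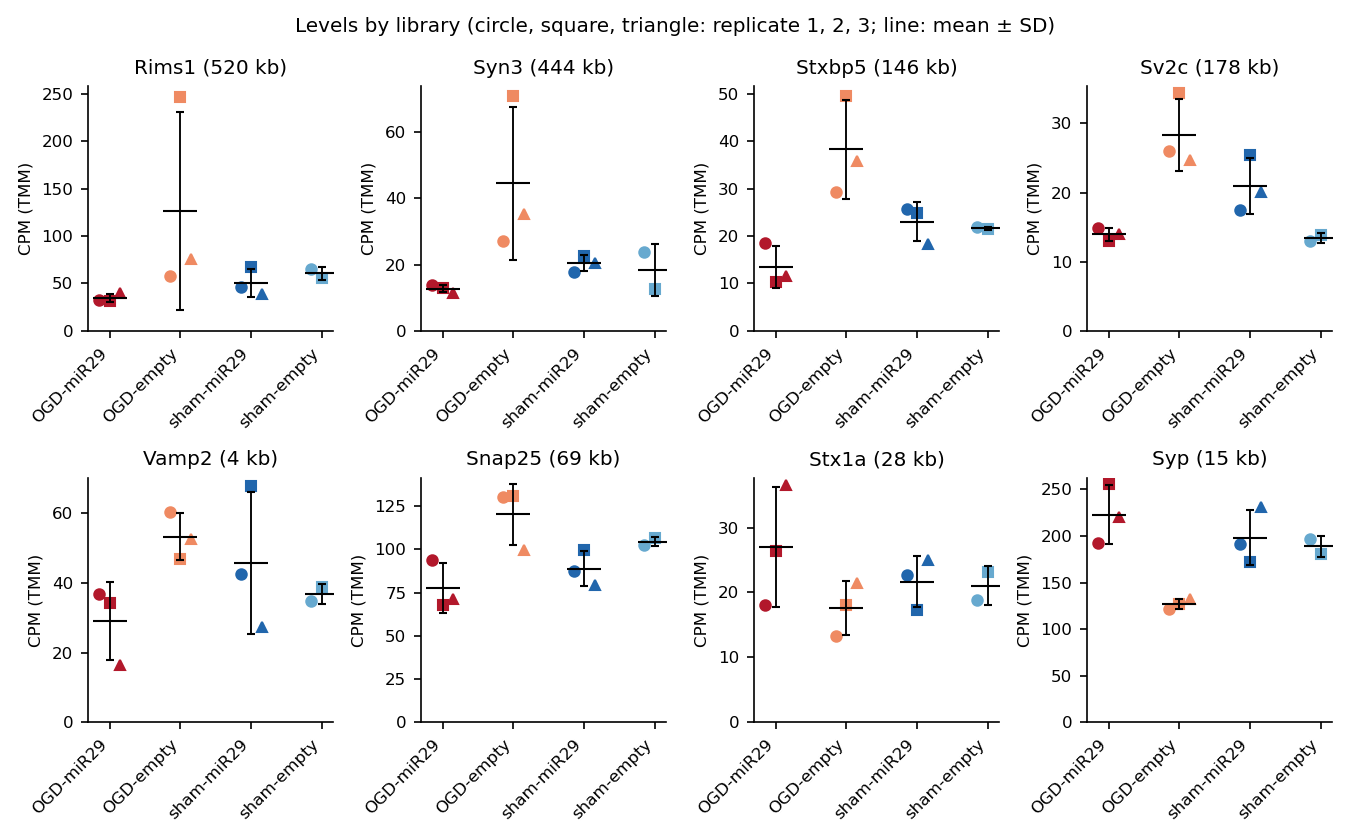
CPM of 8 release genes in each library of the 4 groups, with replicates 1, 2 and 3 as circle, square and triangle and the mean ± SD as a black line with bars (n = 3, 2 in sham-empty). Rims1, Syn3, Stxbp5 and Sv2c are lower in OGD-miR29 than in OGD-empty with replicate 2 of OGD-empty on top, while Syp is higher, at 193 to 256 CPM against 122 to 132 CPM.

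Among the 5 SNAREs of release, 2 were lower. Snap25, the plasma membrane SNARE that botulinum toxin A cleaves, had 94.1, 67.7 and 71.2 CPM in OGD-miR29, 130.0, 131 and 99.7 CPM in OGD-empty, 87.6, 99.5 and 79.5 CPM in sham-miR29, and 102 and 106 CPM in sham-empty. The OGD groups did not overlap, and the lowest OGD-empty library was about level with sham-miR29 replicate 2 (-0.63 ± 0.19, adjusted p = 0.0166). The adjusted p was above 0.05 without OGD-empty replicate 1 (0.0641) and without OGD-miR29 replicates 2 (0.0713) or 3 (0.0545). Vamp2, the vesicle SNARE of fast release, had 36.7, 34.3 and 16.3 CPM in OGD-miR29, 60.2, 47.0 and 52.5 CPM in OGD-empty, 42.5, 67.6 and 27.3 CPM in sham-miR29, and 34.8 and 38.8 CPM in sham-empty. The OGD groups did not overlap, OGD-miR29 replicate 3 was the lowest library of all, and both sham-miR29 and OGD-miR29 spread widely (-0.85 ± 0.31, adjusted p = 0.0437). The Vamp2 call was lost without OGD-empty replicate 1 (adjusted p = 0.116) or 3 (0.0727) and without OGD-miR29 replicate 2 (0.0734) or 3 (0.129).

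Stx1a encodes a partner of Snap25 in the plasma membrane. It had 18, 26.4 and 36.5 CPM in OGD-miR29, 13.3, 18.1 and 21.4 CPM in OGD-empty, 22.8, 17.3 and 24.9 CPM in sham-miR29, and 18.9 and 23.2 CPM in sham-empty, a log2 fold change of 0.62 ± 0.26 that did not pass (adjusted p = 0.0669). It passed with the replicate block (0.59, adjusted p = 0.0437), without OGD-miR29 replicate 1 (0.89, 0.0179) and without OGD-empty replicate 3 (0.0478), and its value was 0.36 without OGD-miR29 replicate 3 and 0.41 without OGD-empty replicate 1. Vamp1, the vesicle SNARE of brain stem and spinal synapses, was scarce, with 3.12, 5.51 and 3.85 CPM in OGD-miR29, 3.55, 0.903 and 2.14 CPM in OGD-empty, 2.28, 2.69 and 3.34 CPM in sham-miR29, and 0.995 and 4.63 CPM in sham-empty, and its value of 0.62 ± 0.44 did not pass (adjusted p = 0.275). Leaving out OGD-empty replicate 1 gave 1.4, and leaving out replicate 2 gave 0.28. Gm25492 held 0.756 times the count of Stx1a. Complexins gave no call. Cplx1 had 60.8, 74.8 and 40.4 CPM in OGD-miR29, 51.9, 58.3 and 45 CPM in OGD-empty, 52.7, 58.4 and 60.7 CPM in sham-miR29, and 63.7 and 70.0 CPM in sham-empty, with overlapping groups (0.18 ± 0.21, adjusted p = 0.512), and Gm10086 held 0.975 times its count. Cplx2 had 25.0, 19.3 and 16.8 CPM in OGD-miR29, 37.5, 22.1 and 28.4 CPM in OGD-empty, 25.8, 28.1 and 23.7 CPM in sham-miR29, and 17.9 and 16.8 CPM in sham-empty. It was lower in OGD-miR29 in all 3 pairs, although the groups overlapped (-0.53 ± 0.22, adjusted p = 0.0694). The value was -0.28 without OGD-empty replicate 1, and it passed without OGD-empty replicate 2 (-0.72, 0.0112) and without OGD-miR29 replicate 1 (-0.69, 0.0486).

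Of the 11 synaptotagmins measured, 4 were lower in OGD-miR29 than in OGD-empty and 0 were higher. The clearest was Syt14, a synaptotagmin without calcium-binding residues, with 8.08, 7.48 and 5.77 CPM in OGD-miR29, 17.45, 42.0 and 17.7 CPM in OGD-empty, 6.83, 13.5 and 6.43 CPM in sham-miR29, and 10.9 and 12.7 CPM in sham-empty. All OGD-miR29 libraries lay below all OGD-empty ones, and OGD-empty replicate 2 stood out (-1.78 ± 0.36, adjusted p = 0.00178). Syt2, a fast calcium sensor of inhibitory and hindbrain synapses, had 7.35, 8.66 and 6.73 CPM in OGD-miR29, 15.8, 9.03 and 17.7 CPM in OGD-empty, 12.1, 13.1 and 9.77 CPM in sham-miR29, and 10.9 and 11 CPM in sham-empty. It differed without overlap (-0.91 ± 0.27, adjusted p = 0.0123), here with OGD-empty replicate 2 the lowest of its group. The gene Ppp1r12b beside it held 2.41 times its count and had a log2 fold change of -1.0, and the Syt2 call was lost without OGD-empty replicate 1 (adjusted p = 0.0618) or OGD-miR29 replicate 1 (0.0527).

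Syt7, the high-affinity sensor of asynchronous release and facilitation, had 19.8, 19.7 and 13.9 CPM in OGD-miR29, 30.4, 32.1 and 21.4 CPM in OGD-empty, 13.7, 21.5 and 19.0 CPM in sham-miR29, and 20.9 and 17.4 CPM in sham-empty. The OGD groups were separate (-0.64 ± 0.23, adjusted p = 0.0343), and Lrrc10b held 0.673 times its count. Syt9 was lower at -1.10 ± 0.38 (adjusted p = 0.0302), with means of 2.63 ± 1.14 CPM in OGD-miR29 and 5.51 ± 1.99 CPM in OGD-empty (SD, n = 3 each). The Syt7 and Syt9 calls were each lost without replicate 1 of OGD-empty and replicates 1 or 3 of OGD-miR29. For Syt7 this also held without OGD-miR29 replicate 2, and for Syt9 without OGD-empty replicate 2. Syt4 had 48.9, 30.7 and 33.2 CPM in OGD-miR29, 55.1, 30.7 and 57.4 CPM in OGD-empty, 61.0, 50.7 and 49.4 CPM in sham-miR29, and 47.7 and 41.1 CPM in sham-empty, and Syt11, a relative that does not bind calcium and limits vesicle endocytosis, had 59.0, 64.6 and 42.3 CPM in OGD-miR29, 75.1, 44.3 and 78.8 CPM in OGD-empty, 59.5, 74.2 and 55.8 CPM in sham-miR29, and 70.6 and 57.3 CPM in sham-empty. Both overlapped between the OGD groups, with log2 fold changes of -0.33 ± 0.24 and -0.25 ± 0.23. The remaining 5 (Syt5, Syt6, Syt13, Syt16 and Syt17) had log2 fold changes of -0.63 to 0.62 and did not pass.

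Syntaxin-binding proteins were among the genes lower in OGD-miR29. Stxbp4 did not pass, with the value -1.36 ± 0.60 (adjusted p = 0.0843) and a count of 0 in OGD-miR29 replicate 2, which allows up to 1.18 CPM from counting error alone. Stxbp5 encodes tomosyn, which occupies syntaxin and Snap25 and restrains release. It had 18.6, 10.2 and 11.5 CPM in OGD-miR29, 29.3, 49.7 and 35.9 CPM in OGD-empty, 25.8, 25.0 and 18.3 CPM in sham-miR29, and 21.9 and 21.4 CPM in sham-empty. The highest OGD-miR29 library stayed below the lowest OGD-empty one (-1.44 ± 0.26, adjusted p = 0.000659). Stxbp5l, the second tomosyn, had 14, 9.06 and 10.1 CPM in OGD-miR29, 26.3, 69.1 and 23.1 CPM in OGD-empty, 13.7, 20.0 and 15.4 CPM in sham-miR29, and 28.8 and 20.8 CPM in sham-empty. OGD-empty replicate 2 lay far above the rest (-1.77 ± 0.38, adjusted p = 0.00367), and without it the value was -1.15.

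Stxbp6 encodes amisyn, which carries a synaptobrevin-like motif and binds syntaxin without bridging to the vesicle. It had 1.10, 1.18 and 1.92 CPM in OGD-miR29, 5.25, 11.7 and 5.36 CPM in OGD-empty, 1.90, 1.54 and 3.60 CPM in sham-miR29, and 2.98 and 2.89 CPM in sham-empty. The levels were low, yet every OGD-miR29 library was below every OGD-empty one (-2.40 ± 0.46, adjusted p = 0.000892). Of all 20 calls between OGD-miR29 and OGD-empty, those of Stxbp5, Stxbp6, Syt14 and Stx18 held under each of the 19 alternatives run.

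Of the 6 active zone and priming genes 3 were lower in OGD-miR29, and these were the 3 longest. Rims1 encodes the scaffold that ties calcium channels to docked vesicles, and had 32.9, 31.5 and 39.9 CPM in OGD-miR29, 57.4, 247 and 76.1 CPM in OGD-empty, 46.6, 67.3 and 38.6 CPM in sham-miR29, and 65.6 and 55.6 CPM in sham-empty. OGD-empty replicate 2 was far above every other library, and the other 2 OGD-empty libraries were in the range of the sham libraries or just above it (-1.86 ± 0.53, adjusted p = 0.0256). Without that library the log2 fold change was -0.96. Rims2 had 20.0, 23.6 and 19.7 CPM in OGD-miR29, 36.0, 154 and 48.2 CPM in OGD-empty, 22.4, 35.7 and 19.5 CPM in sham-miR29, and 41.8 and 38.8 CPM in sham-empty. It had the same outlying library (-1.90 ± 0.54, adjusted p = 0.0251; -1.0 without it). Both calls were lost without any 1 of the OGD-miR29 libraries (adjusted p of 0.0671 to 0.0814 for Rims1 and 0.0639 to 0.0825 for Rims2).

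Unc13b, which primes vesicles at part of the glutamatergic synapses, had 8.63, 10.6 and 13.0 CPM in OGD-miR29, 12.2, 27.1 and 19.8 CPM in OGD-empty, 11.4, 13.5 and 11.6 CPM in sham-miR29, and 16.9 and 11.6 CPM in sham-empty. The OGD groups overlapped slightly (-0.85 ± 0.28, adjusted p = 0.0236), and the value without OGD-empty replicate 2 was -0.56 (adjusted p = 0.106). The call was also lost without OGD-empty replicate 3 (adjusted p = 0.0506) and without OGD-miR29 replicate 1 (0.125) or 2 (0.0569). Unc13a, the main priming factor of the forebrain, had 32.7, 33.5 and 30.3 CPM in OGD-miR29, 40.6, 43.4 and 33.8 CPM in OGD-empty, 31.5, 41.1 and 28.5 CPM in sham-miR29, and 27.8 and 27.8 CPM in sham-empty. Its OGD groups did not overlap, but the difference was small (-0.29 ± 0.20, adjusted p = 0.25), and Colgalt1 held 0.604 times its count. Rims3 and Rims4, short forms without the zinc finger of Rims1, had log2 fold changes of -0.55 ± 0.28 and -0.11 ± 0.22 and did not pass.

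Of the 13 SNAREs of other membranes 3 were higher and 0 lower (23.1% higher, against 17.2% of all genes), and their median log2 fold change was 0.04. Stx18, a syntaxin of the endoplasmic reticulum, had 126, 153 and 190.4 CPM in OGD-miR29, 72.0, 88.5 and 85.2 CPM in OGD-empty, 121, 91.5 and 137 CPM in sham-miR29, and 96.5 and 121 CPM in sham-empty. Each OGD-miR29 library was above each OGD-empty library (0.93 ± 0.21, adjusted p = 0.00249). The neuronal gene Nsg1 on the other strand held 1.13 times the count of Stx18 and had a log2 fold change of 1.01 (adjusted p = 0.00118), so the reads of Stx18 and Nsg1 cannot be told apart. Vamp5, known from muscle and other non-neuronal membranes, had 8.82, 8.66 and 9.13 CPM in OGD-miR29, 4.17, 3.61 and 4.82 CPM in OGD-empty, 6.83, 7.30 and 8.49 CPM in sham-miR29, and 11.9 and 5.21 CPM in sham-empty. The OGD groups were separate (1.08 ± 0.30, adjusted p = 0.00871), and Rnf181, at 1.15 times its count, had a log2 fold change of 0.82. Stx12, of recycling endosomes, differed by 0.63 ± 0.23 (adjusted p = 0.0359), with means of 26.4 ± 4.28 CPM in OGD-miR29 and 17.2 ± 3.93 CPM in OGD-empty (SD, n = 3 each). Its call was lost without OGD-empty replicate 2 (0.129) and without OGD-miR29 replicate 1 (0.137) or 2 (0.0617). The other 10 ranged from -0.69 (Stx16) to 0.54 (Stx6).

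The direction of a gene between OGD-miR29 and OGD-empty tended to go with its annotated length, less so among the shortest release genes. Of the 16 release genes that span 100 kb or more, 12 were lower and 0 higher (75.0% lower), and 64.0% of all 1880 genes of that length were lower. Of the 33 shorter release genes 4 were lower and 4 higher (12.1% each), against 11.6% lower and 20.3% higher among all shorter genes. The 9 release genes under 20 kb had a median log2 fold change of -0.05, with 1 lower and 2 higher. All 5536 genes under 20 kb had a median of 0.44, with 5.17% lower and 29.8% higher. Across the 49 genes, Spearman's correlation of log2 fold change with span was -0.565, and across 11895 genes it was -0.579, as descriptions over genes that share the same libraries. Just outside the 100 kb limit lay Stx18 at 99.0 kb, and just inside it Syt2 at 116 kb. Rims1 (chr1:22286251-22805994, 520 kb), Rims2 (chr15:39198261-39684372, 486 kb) and Syn3 (chr10:86055125-86498896, 444 kb) were the longest (GRCm38, whole transcribed spans with exons and introns). Counts cover an unstated region, and whether introns were counted was not given in the sources used here.

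**Figure D3:**
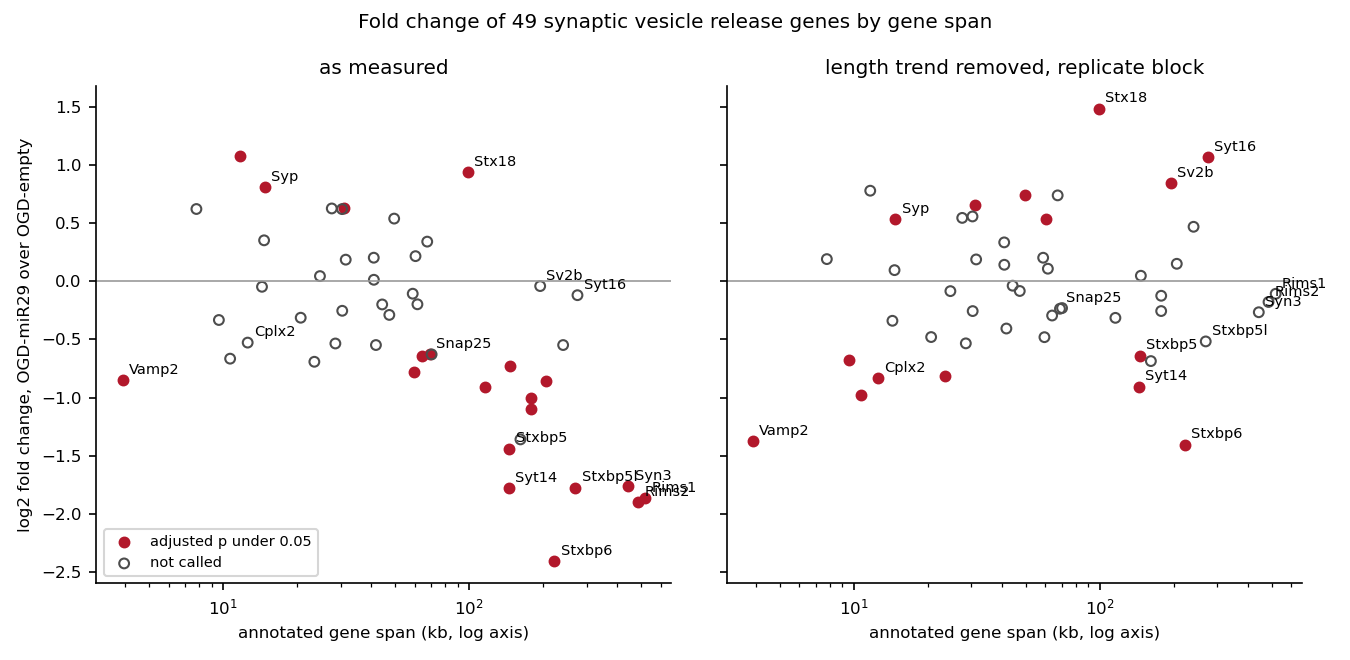
Log2 fold change of the 49 release genes in OGD-miR29 over OGD-empty (vertical) by annotated span in kb on a log axis, as measured (left) and after the length trend was removed with the replicate block (right), with filled points at an adjusted p under 0.05. On the left the genes of 100 kb or more lie below 0, with Rims1 at -1.86, and on the right they lie on both sides, with Rims1 at -0.11 and Stxbp6 at -1.41.

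When the trend of level with span was removed within each library and the replicate block was added, 7 release genes were higher and 8 lower (14.3% and 16.3%). Of all genes 11.9% were higher and 12.3% lower. The fit as measured, which called 20 release genes, had no block. Of the 20 genes called before, 7 held, 11 no longer passed and 2 changed sign without passing (Syn2 0.05, Unc13b 0.15). The correlation with span was then 0.079 across the 49 genes. Rims1 (-0.11), Rims2 (-0.18), Syn3 (-0.27) and Sv2c (-0.13) were among those that no longer passed. Lower genes were Stxbp6 (-1.41, adjusted p = 0.0163), Syt14 (-0.91, adjusted p = 0.00453) and Stxbp5 (-0.64, adjusted p = 0.0235), and the short genes Vamp2 (-1.37, adjusted p = 7.02e-05), Cplx2 (-0.83, adjusted p = 0.00244), Syt4 (-0.68, adjusted p = 0.00851), Stx16 and Vamp3. Camta1, the neighbour of Vamp3 with 11.9 times its count, was itself lower as measured (-1.23). Vamp2 spans 3.90 kb, a length at which most genes were level or higher in OGD-miR29, with a median of 0.44 over 5536 genes under 20 kb. Higher genes were Stx18, Syp and Stx12 as before, and Syt16 (1.07), Sv2b (0.84, adjusted p = 0.00221), Stx6 and Syn1 (0.53). With the trend removed and no block, 14 of the 49 and 2704 of 11895 genes were called, and 7 of the 20 held.

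The fit with the trend removed and the replicate block added also changed the calls of other comparisons. For OGD-empty against sham-empty it left Sv2c at 0.39 (adjusted p = 0.49), and called Cplx2 (1.05, adjusted p = 0.0195) and Vamp2 (1.16, adjusted p = 0.0128) higher and Stx18 (-0.96, adjusted p = 0.0106) lower, where 1.67% of all genes were called higher and 2.75% lower. As measured, the correlation with span there was 0.521 over the 49 genes and 0.528 over all genes. For the interaction that fit called 6 genes, Vamp2, Cplx2 and Syt4 lower and Stx18, Stx6 and Syt16 higher. None of the 3 called as measured was among them. Of all genes 3.38% were lower and 4.44% higher. The replicate block alone had already called Vamp2, Cplx2 and Stx18 in the interaction. With the trend removed and no block, 1 of the 49 genes was called for OGD-empty against sham-empty and 3 in the interaction. None of these was among the calls as measured, and 298 and 565 of 11895 genes were called.

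The share of reads from long genes was highest in the OGD-empty libraries. Release genes of 100 kb or more held 18.2%, 16.3% and 17.4% of the CPM of all release genes in OGD-miR29, 25.4%, 47.5% and 28.8% in OGD-empty, 20.6%, 22.7% and 18.8% in sham-miR29, and 24.4% and 22% in sham-empty. The OGD-empty libraries were the 3 highest, replicate 2 by a wide margin, and the OGD-miR29 libraries the 3 lowest. OGD-empty replicate 2 was the highest library for 21 of the 49 genes and for 14 of the 16 long ones, and long genes held 43.4% of its CPM over all genes outside the mitochondrial rows, against 14.5% to 26.6% in the other libraries. Without it, OGD-miR29 against OGD-empty still gave 3 higher and 16 lower among 48 release genes tested (15.4% and 19.4% of all genes), 10 of the lower ones of 100 kb or more.

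**Figure D4:**
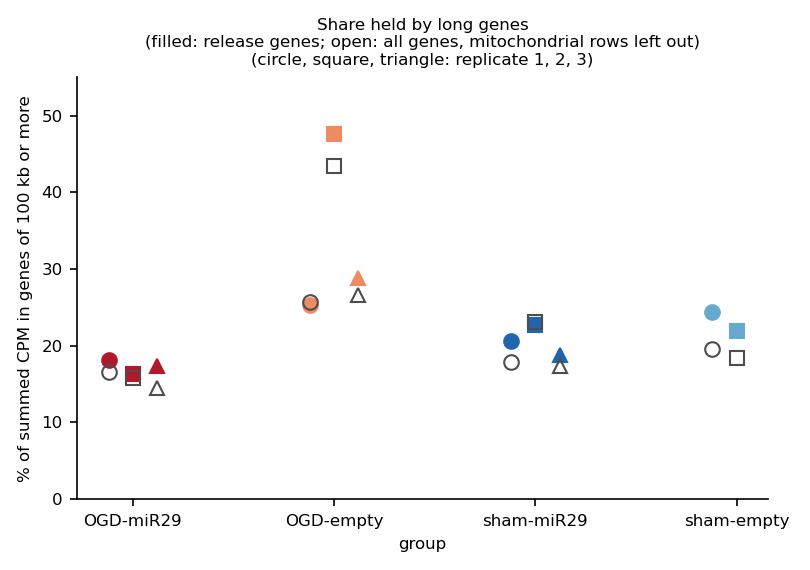
Percent of summed CPM held by genes of 100 kb or more in each library, for the 49 release genes (filled) and for all genes outside the mitochondrial rows (open), by group, with replicates 1, 2 and 3 as circle, square and triangle. The release genes follow the open symbols, from 16.3% to 18.2% in OGD-miR29 to 47.5% in OGD-empty replicate 2.

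Genes around the release machinery, from lists of the wider vesicle cycle, were also called in both directions between OGD-miR29 and OGD-empty, where 17.2% of all genes were higher and 19.9% lower, or 11.9% and 12.3% with the length trend removed in replicate blocks. Of 19 active zone scaffold and Rab3 genes 8 were lower and 0 higher, among them Rab3c (-1.31 ± 0.26, adjusted p = 0.00129), Erc1 (-1.02 ± 0.23) and the giant scaffold Bsn (-1.21 ± 0.27). Of 10 presynaptic calcium channel genes 7 were lower and 0 higher, led by Cacna1e (-1.75 ± 0.33, adjusted p = 0.00151), Cacna2d1 (-2.04 ± 0.43) and Cacna1b (-1.0 ± 0.27), the pore of N-type channels. Of these lists 8 genes each span 100 kb or more, with 7 lower in each, and 64.0% of all genes of that length were lower. With the length trend removed the counts were 2 lower and 3 higher, and 2 lower and 1 higher. Bsn (-0.70, adjusted p = 0.0169) and Cacna2d1 (-0.51, 0.0462) stayed lower. Rab3c (-0.33, 0.254), Erc1 (0.15, 0.602), Cacna1e (-0.22, 0.439) and Cacna1b (-0.13, 0.677) no longer passed. Cadps turned from lower (-0.96) to higher (0.51, 0.0462). Of 17 subunits of the proton pump that fills vesicles 9 were higher and 0 lower, including Atp6v0b (1.16 ± 0.21, adjusted p = 0.000749), Atp6v1e1 (1.14 ± 0.21) and Atp6v1g1 (1.04 ± 0.26). With the trend removed 7 were higher, not all of them the same genes. Atp6v0b (0.65, adjusted p = 0.0115) and Atp6v1e1 (1.09, 7.89e-05) were among these. Atp6v1g1 (0.58, 0.0640), Atp6v1f, Atp6ap1 and Atp6v0e2 no longer passed. Of the 17 subunits 7 span under 20 kb, with 5 higher, and 29.8% of all genes under 20 kb were higher.

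Vesicle endocytosis genes went both ways, 5 higher and 8 lower of 22. The clathrin light chain Clta was higher (1.25 ± 0.23, adjusted p = 0.000711), and the dynamin Dnm3 (-1.87 ± 0.36, adjusted p = 0.00201) and the clathrin adaptor Picalm (-0.89 ± 0.21) were lower. With the trend removed 6 were higher and 1 lower. Clta (1.23) still passed, while Dnm3 (-0.36, adjusted p = 0.203) and Picalm (-0.41, 0.104) did not. Of 7 genes for SNARE disassembly and related SNAREs, Snap47 was higher (0.79 ± 0.19, adjusted p = 0.00381) and none lower. Of 5 vesicular transmitter transporters, Slc18a2, the monoamine transporter, was lower (-1.04 ± 0.28, adjusted p = 0.00845), and the other 4 transporters measured did not pass. None of 7 other vesicle membrane genes passed.

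Between OGD-miR29 and OGD-empty, 4 of the 13 release genes with a miR-29 seed match were lower and 1 higher (30.8% and 7.69%), against 12 lower and 3 higher of the 36 without one (33.3% and 8.33%). Over all genes tested, 29.5% of those with a match were lower and 9.15% higher, against 19.3% lower and 17.4% higher of those without one. The median log2 fold changes were -0.55 with a match and -0.32 without, where all genes tested gave -0.26 with a match and 0.04 without. The difference between these shares was not tested. Between sham-miR29 and sham-empty, where the virus acts without OGD, 0 of the 13 were called by edgeR and their median was 0.07. Of the genes whose matches are printed above, Sv2c was at 0.63 ± 0.29 there, Syp at 0.07 ± 0.22, Syt14 at -0.46 ± 0.47, Syt2 at 0.07 ± 0.34 and Unc13b at -0.19 ± 0.36.

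How reads in overlapping or adjacent genes were assigned is not stated, so release genes with a close neighbour are less certain. For 30 of the 49 genes no annotated gene in the gene or within 10 kb downstream held over 0.5 of its own count, and of these 1 was higher and 14 were lower in OGD-miR29 than in OGD-empty. For the 19 others the counts were 3 higher and 2 lower. Over all genes tested 17.2% were higher and 19.9% lower. Among the 19, only Stx8 (241 kb) and Syt2 (116 kb) span 100 kb or more. The part of a neighbour and that of gene length in this split cannot be told apart. The 3 higher genes with such a neighbour were Syp, Stx18 and Vamp5, and the 2 lower ones Syt2 and Syt7. The largest ratio belonged to Vamp3, whose neighbour Camta1 held 11.9 times its count. Camta1 had a log2 fold change of -1.23 between OGD-miR29 and OGD-empty (edgeR adjusted p = 0.000774).

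By ranges alone, in 20 of the 49 genes all OGD-miR29 libraries lay below all OGD-empty ones, and in 5 all lay above, where 25.2% and 25.0% of all genes did so and 37.1% were called.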

How the data were processed

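Total RNA was depleted of ribosomal RNA and sequenced. The authors deposited whole-number counts per gene symbol for 12145 genes in 12 columns, and all columns were mapped to a sample (0 unmapped). The submitters' processing notes name STAR 2.5.0a, featureCounts 1.4.3-p1, edgeR and mm10 without role or order, while the counted region, the strand and any gene filter are not stated there. For sham-empty replicate 3 the values were deposited as whole numbers of another kind, with a median of 1 and a Spearman correlation of 0.0438 to 0.0978 with the other libraries, and were used in no fit. The deposited tables of the authors' own comparisons hold log2 fold changes, a likelihood ratio score, p-values and false discovery rates, per the file headers. They were used only where named.

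Counts of 11 libraries were fitted together in edgeR 4.0.16 (R 4.3.3), with TMM scaling, filterByExpr (12119 of 12145 genes kept), a mean per group and the robust quasi-likelihood test. P-values were adjusted by Benjamini-Hochberg over all genes tested, separately for each of 6 comparisons, and 0.05 was the limit. They measure the spread between cultures dissected on different days. Alternatives were DESeq2 1.42.0, limma-voom (limma 3.58.1), other scaling and filters, the replicate number as a block, a fit of only the groups compared, left-out libraries, and offsets that remove each library's loess trend (span 0.3) of log2 CPM (prior count 2) on gene span. Floors and limits from counts cover counting error only. The edgeR, DESeq2, limma-voom, replicate block and blocked length trend fits were run on simulated counts with known changes. The other alternatives were not. The simulated counts had no length trend, no effect of day and no outlying library, so they cannot show how the fits handle these.

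Pairing comes from the design text, which ties replicates to dissection days. Deviations from the group means correlated at -0.0898 to 0.232 between same-numbered libraries (15 pairs) and at -0.245 to 0.201 between others (30 pairs). Annotation was GENCODE M21 (GRCm38), to which 11918 of 12145 symbols matched.

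Named in full were measured genes of a core list of 26 (Unc13c was not analysed here, and some genes that the rule names are not reported here), the 10 genes called with the smallest p in each comparison, or the 3 with the smallest p where none was called, and 3 called genes per list of the wider vesicle cycle. The genes and lists were chosen with earlier results of these data known.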

Additional observations from a re-analysis of the deposited data

Results flagged for a closer look

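The OGD effect differed between the viruses by the interaction term for 3 release genes. The difference, miR-29 minus empty virus, was -1.64 for Sv2c, -1.52 for Stxbp5 and -1.97 for Syn3 on the log2 scale. All 3 genes span over 100 kb (178 kb, 146 kb and 444 kb). After removal of the trend with span, in blocks of replicate number, the differences were -0.74, -0.74 and -0.52, with adjusted p of 0.203, 0.187 and 0.368 (edgeR quasi-likelihood test). In OGD-empty replicate 2, the library with the largest share of reads from long genes, Sv2c and Syn3 had their highest level of all 11 libraries, and so did Stxbp5. The part of that library's composition in the differences was not tested.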

How the results depend on the processing

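Between OGD-miR29 and OGD-empty, 20 release genes were called, and 10 to 20 when 1 library or 1 replicate number was left out. For OGD-empty against sham-empty, 1 gene was called, against 2 with DESeq2, 0 with limma-voom, 0 when only the groups compared were fitted, 3 after removal of the trend with span within replicate blocks, and 0 to 2 with libraries left out. The replicate block gave 4 calls there, 23 between OGD-miR29 and OGD-empty and, in the interaction, 9 in place of 3. The interaction gave 6 after removal of the trend with span within replicate blocks, and 0 to 6 with libraries left out. The comparisons without a call had none under any alternative run. Signs turned between OGD-miR29 and OGD-empty for Syn2 (0.067, and 0.047 with the replicate block), Unc13b (0.15 in both) and Sv2b (0.87 and 0.84) when the length trend was removed, an alternative built to take out that trend. With libraries left out, uncalled genes turned sign, with ranges of -0.24 to 0.11 for Sv2a, -0.31 to 0.13 for Sv2b, -0.019 to 0.39 for Cplx1 and -0.58 to 0.040 for Syt11, and the cause was not tested. Low counts limit genes such as Stxbp4, Stxbp6, Syt9, Syt17, Vamp1, Vamp3 and Vamp5, at under 10 CPM in most libraries. Stx4a, Stx16, Stx8, Syt6, Stx17 and Syt13 were also scarce, with 116 to 252 counts summed over the 11 libraries. With 2 sham-empty libraries, every value against that group rests on few cultures.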
